A study of Mus musculus with 12 samples.

Results

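The genes described here mark a fetal-like state of injured gut epithelium, and 8 of the 54109 genes of the count table are covered: Ly6a, Anxa1, Anxa3, Anxa8, Clu, Msln, S100a6 and Il1rl1. They were taken from a list of regenerative epithelium genes and found by symbol in the GENCODE M21 annotation of GRCm38. Il1rl1 was listed as Il33ra, a name for the interleukin-33 receptor that is not in the RefSeq table. All 8 are protein-coding, and all 8 passed the filter on low counts in each of the 4 comparisons. At an adjusted p under 0.05, 5 of the 8 were lower in lamina propria mononuclear cells (LPMC) than in full colon, as were 24.9% of all genes tested. Between genotypes 0 of the 8 passed in colon and 0 in LPMC, where 0.00518% and 0.0103% of all genes did.

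When the colonic epithelium is wounded, surviving cells can leave the adult programme for one that resembles the fetal gut. They lose adult stem cell markers such as Lgr5 and switch on Ly6a (Sca-1), annexins and Clu until the crypts are restored. The transcriptional co-activators YAP and TAZ, which act through TEAD factors on DNA, are the best known drivers of this switch, and interferon also induces Ly6a. Several of these genes are not limited to epithelium: Clu is made by follicular dendritic cells, Msln by the mesothelium that lines the gut surface, and Il1rl1 by mast cells, regulatory T cells and type 2 innate lymphoid cells. Which cells held the RNA of Ly6a, Anxa1, Anxa3, Anxa8 and S100a6 was not tested, and scaling to epithelial markers does not show it.

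RNA came from wild-type (WT) mice and from Gpr15l-/- mice (KO), which lack a secreted ligand of the T cell homing receptor Gpr15, and every mouse had colitis from dextran sulfate sodium (DSS), which is toxic to the epithelium. Each tissue was sampled in 3 WT and 3 KO libraries, which makes 4 groups, and no untreated group was analysed here. The sources used here do not give age, sex, DSS dose, the construction of the deleted allele or any pooling of animals. Nor do the labels tie each library to an animal of its own, so the p-values rest on a spread between libraries that could be technical in part. Counts of the deleted gene, annotated as 2610528A11Rik, were 15639 to 80362 in WT libraries and 4 to 20 in KO libraries.

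Libraries held 45.4 to 140.7 M counts (M for 1e6). The LPMC libraries were not free of epithelium: the summed level of 12 epithelial markers was 12516 to 17911 CPM (counts per 1e6 counts of the library) in them and 19785 to 38203 CPM in colon libraries. All 12 T cell markers were called higher in LPMC (median log2 fold change 3.12), as were all 10 fibroblast markers (2.62) and all 10 immediate early and heat shock genes known to respond to tissue dissociation (4.32). The leukocyte gene Ptprc rose in LPMC (2.52, SE 0.68, adjusted p = 0.0106 by edgeR), where it was at 76.5 to 297 CPM. It was at 124 CPM in colon WT replicate 1, inside the LPMC range, and at 4.11 to 26.5 CPM in the remaining colon libraries. Individual libraries stood apart in ways that touch the genes below. Colon WT replicate 1 held 918 CPM of 8 B cell markers, and the other colon libraries held 2.43 to 22 CPM. Colon WT replicate 2 was the highest colon library for 20 interferon response genes (4994 CPM against 1146 to 2748) and 12 stratified squamous markers (29.7 CPM against 4.47 to 12). Colon KO replicate 2 was the highest for epithelial markers (38203 CPM) and for 15 absorptive colonocyte genes (26613 CPM against 7907 to 16854). LPMC WT replicate 1 held 100 CPM of 10 mesothelial markers, against 4.43 to 15 CPM in the other LPMC libraries.

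In the RefSeq promoter table of GRCm38.p6, 4 of the 8 genes were matched. Sequences of 3 of them are printed because their genes represent the patterns found: Anxa8 had the largest fall from colon to LPMC of the 8, S100a6 fell with it, and Il1rl1 did not pass in any comparison. Each is the part of the 250 bases before a transcription start that lies outside annotated exons, on the plus strand. Capitals mark a TEAD motif, searched as GGAATG on both strands.

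Anxa8 promoter, chr14:34085729-34085978: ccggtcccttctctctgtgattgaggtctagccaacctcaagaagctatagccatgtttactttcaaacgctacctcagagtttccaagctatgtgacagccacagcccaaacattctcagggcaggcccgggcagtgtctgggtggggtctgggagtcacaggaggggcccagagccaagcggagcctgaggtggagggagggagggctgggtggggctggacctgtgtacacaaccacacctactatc
S100a6 promoter, chr3:90612644-90612881: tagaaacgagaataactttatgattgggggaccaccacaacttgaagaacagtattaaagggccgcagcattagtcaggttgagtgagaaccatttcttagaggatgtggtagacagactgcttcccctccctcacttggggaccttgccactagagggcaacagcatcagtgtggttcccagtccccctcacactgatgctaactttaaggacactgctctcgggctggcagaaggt
Il1rl1 promoter at the start at 40439629, chr1:40439379-40439626: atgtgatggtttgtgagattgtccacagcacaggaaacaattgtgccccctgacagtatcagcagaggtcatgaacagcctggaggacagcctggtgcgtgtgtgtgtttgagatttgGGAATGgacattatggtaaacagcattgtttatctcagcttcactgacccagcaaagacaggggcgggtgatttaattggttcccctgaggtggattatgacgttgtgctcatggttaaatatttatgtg

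The Il1rl1 match lies 132 to 127 bases before that start, and 12.6% of 32851 promoter windows of 250 bases hold this motif. The window at its other start, chr1:40429320-40429569, holds none, and neither do those of Anxa8 and S100a6. The window of Anxa1 lies wholly in annotated exons; it holds the motif 236 to 231 bases before its start, as CATTCC on the gene's strand. No match was found in these windows for AP-1 (TGANTCA, in 6.75% of windows), STAT (TTCNNNGAA, 7.02%) or the interferon-stimulated response element (GAAA and GAAA with 2 bases between them, 2.98%), on either strand. A match or its lack describes these letters only.

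Levels below are CPM scaled by TMM factors over the 12 libraries, and levels of different genes are compared only per kilobase of exon. In colon the most abundant of the 8 were Ly6a with 2125 ± 827 CPM per kilobase (SD, n = 6, both genotypes) and S100a6 with 1355 ± 473. Anxa1 (210 ± 90.7) and Anxa8 (187 ± 57.1) followed and did not differ beyond their spread, and Anxa3 stood at 80.2 ± 10.9. Clu (22.1 ± 41.4), Msln (2.7 ± 1.45) and Il1rl1 (1.68 ± 1.13) had lower means, and each of these 3 overlapped its neighbour in that order. The Clu mean rests on colon WT replicate 1, which at 106 CPM per kilobase was above the whole range of Anxa3 (68.5 to 99.3). In LPMC the order per kilobase was S100a6 (294 ± 32.4) and Ly6a (241 ± 69.8), which did not differ beyond their spread, then Anxa1 (54.1 ± 6.3), then Anxa3 (16.5 ± 2.17), Clu (12.8 ± 11) and Anxa8 (12.5 ± 5.63), which overlapped. Msln (2.11 ± 4.61) and Il1rl1 (1.09 ± 0.384) again had the lowest means. The Msln mean rests on LPMC WT replicate 1, which at 11.5 CPM per kilobase was inside the ranges of Clu (5.32 to 34.6) and Anxa8 (5.6 to 19.1). In the remaining LPMC libraries Msln was at 0.0238 to 0.467, below the whole range of Il1rl1 (0.571 to 1.76). Anxa8 thus stood beside Anxa1 in colon and beside Clu in LPMC. Together the 8 genes took 0.589 to 0.862% of all counts in colon WT, 0.418 to 0.453% in colon KO and 0.0819 to 0.127% in LPMC libraries, most of it from Ly6a and S100a6.

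**Figure D1:**
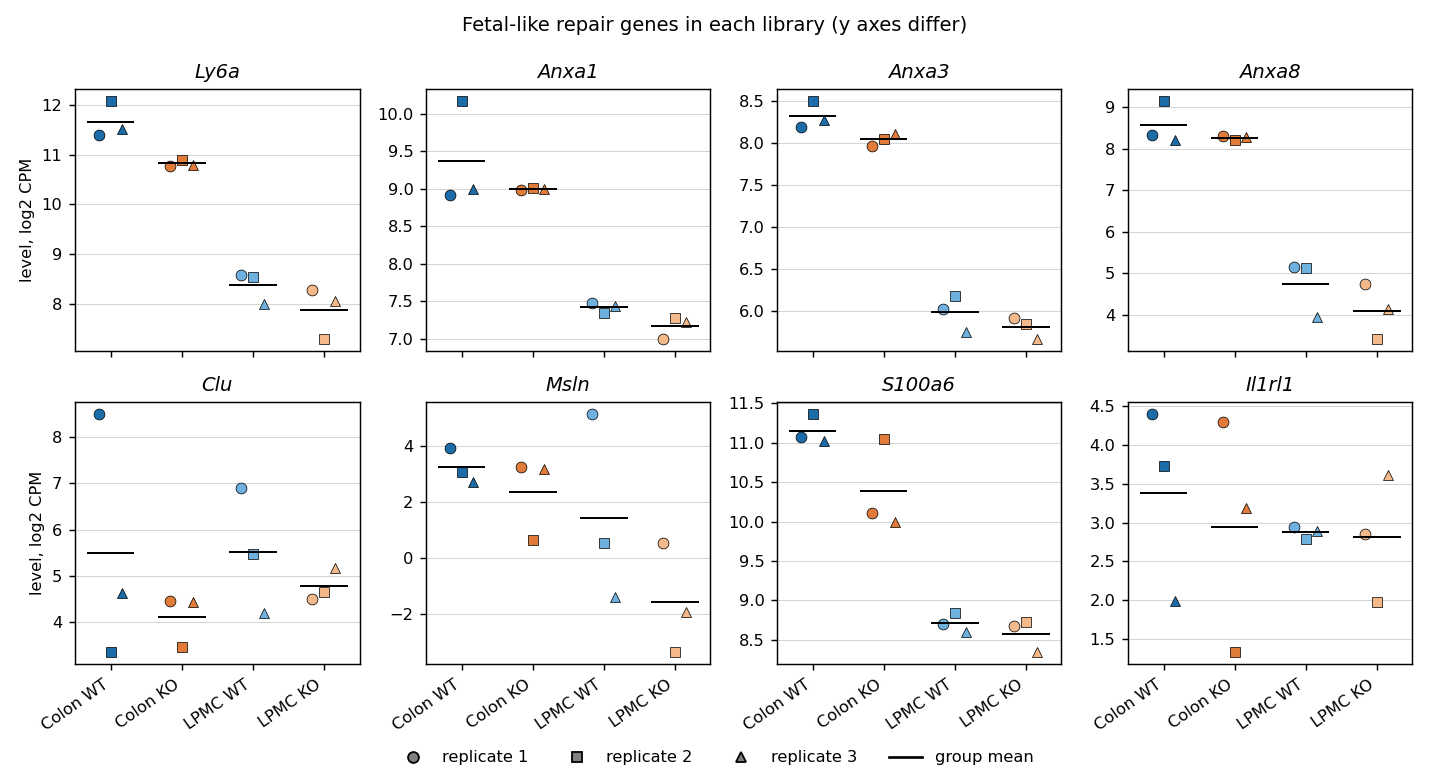
Level of each of the 8 genes in the 12 libraries, as log2 CPM (prior count 2) on y axes that differ between panels, by group on the x axis; symbols mark the replicate number and lines the group means. Ly6a, Anxa1, Anxa3, Anxa8 and S100a6 are lower in all 6 LPMC libraries than in all 6 colon libraries, and single libraries carry the high Clu and Msln values.

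Ly6a (ENSMUSG00000075602, chr15:74994877-74998031, minus strand) encodes a lipid-anchored surface protein, known as Sca-1, that is a leading marker of fetal-like crypts. Its level was 2690, 4327 and 2921 CPM in colon WT replicates 1 to 3 and 1753, 1891 and 1783 CPM in colon KO. Every KO colon library was below every WT one. The log2 fold change of KO against WT was -0.89 (SE 0.24), a ratio of 0.541, which did not pass edgeR's quasi-likelihood test with Benjamini-Hochberg adjustment over all genes (adjusted p = 0.632). In LPMC the levels were 383, 372 and 255 CPM in WT and 313, 157 and 267 CPM in KO, and the groups overlapped (-0.46, SE 0.29, adjusted p = 0.998). Averaged over genotypes, Ly6a fell 8.52-fold from colon to LPMC (log2 fold change -3.09, SE 0.20, adjusted p = 1.72e-06). In bulk RNA, fewer cells of a type and less RNA per cell cannot be told apart. Per 1000 CPM of the 12 epithelial markers, Ly6a was at 92 to 159 CPM in colon WT and 49.5 to 90.1 CPM in colon KO, still without overlap, and at 8.95 to 25.4 CPM in LPMC. All 20 interferon response genes had a negative log2 fold change in colon KO (median -0.78). Of these 20, edgeR called 0, DESeq2 called 2 and 5 had an unadjusted p under 0.05, as did 1504 of all 19303 genes. The summed level of the 20 was 2748, 4994 and 1146 CPM in colon WT and 1243, 1258 and 2304 CPM in colon KO. It overlapped between genotypes, and the part of these genes in the Ly6a values was not tested.

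The Ly6 family holds other surface proteins of the same fold. In KO against WT colon, 13 of 15 measured members, Ly6a included, had a negative log2 fold change (median -0.89, against 0.01 over all genes). By edgeR 0 passed, 6 had an unadjusted p under 0.05 (as did 1504 of all 19303 genes), and DESeq2 called 0. The lowest p-values beside that of Ly6a were those of Ly6g (-0.94, SE 0.22) and Ly6d (-2.01, SE 0.56), both with an adjusted p of 0.632 by edgeR. Ly6g is known as a neutrophil gene and Ly6d as a squamous and B lineage gene. From colon to LPMC, 7 of the 15 were called lower and 1 was called higher. Ly6g (-6.42, SE 0.34, adjusted p = 5.00e-07) and the colonocyte gene Lypd8 (-2.97, SE 0.20, adjusted p = 2.22e-06) were among those that fell. Ly6g was at 426, 569 and 583 CPM in colon WT, 338, 247 and 247 CPM in colon KO and 1.45 to 6.66 CPM in LPMC. The median of 12 neutrophil markers, Ly6g included, was 1.12 from colon to LPMC, so Ly6g did not follow it. The Ly6 genes lie in clusters of close copies, so reads shared between them are uncertain.

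Annexins bind phospholipid membranes in the presence of calcium. Anxa1 (ENSMUSG00000024659, chr19:20373428-20390944, minus strand) is also released and acts on formyl peptide receptors, through which it promotes closure of epithelial wounds. It was at 483, 1150 and 511 CPM in colon WT and at 504, 517 and 508 CPM in colon KO. Only colon WT replicate 2 stood above the rest. The log2 fold change was -0.50 (SE 0.35, adjusted p = 0.703), and without that library it was 0.02 (adjusted p = 0.996). In LPMC the levels were 178, 163 and 173 CPM in WT and 127, 155 and 150 CPM in KO, with every KO library below every WT one (-0.26, SE 0.11, adjusted p = 0.998). From colon to LPMC Anxa1 fell 3.85-fold (-1.94, SE 0.20, adjusted p = 2.99e-05).

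Anxa3 (ENSMUSG00000029484, chr5:96793339-96845966, plus strand) varied least of the 8 within colon. It was at 293, 362 and 308 CPM in colon WT and at 249, 265 and 277 CPM in colon KO. These groups did not overlap, though the difference was small (-0.30, SE 0.17, adjusted p = 0.664), and per 1000 CPM of epithelial markers they did overlap, at 10 to 13.3 CPM in WT and 6.93 to 14 CPM in KO. LPMC WT held 64.7, 72.7 and 54 CPM and LPMC KO 60.3, 57.6 and 50.7 CPM, which overlapped (-0.19, SE 0.13, adjusted p = 0.998). The step from colon to LPMC was 4.86-fold down (-2.28, SE 0.10, adjusted p = 1.87e-07).

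Anxa8 (ENSMUSG00000021950, chr14:34085981-34100571, plus strand) is an annexin of stratified and wounded epithelia. Its levels were 322, 570 and 298 CPM in colon WT and 316, 295 and 312 CPM in colon KO, again with 1 high library, colon WT replicate 2 (-0.38, SE 0.27, adjusted p = 0.706; -0.02 without it, adjusted p = 0.996). LPMC WT held 35.8, 35 and 15.4 CPM and LPMC KO 26.4, 10.5 and 17.6 CPM (-0.67, SE 0.44, adjusted p = 0.998). Its fall from colon to LPMC was 15.3-fold (-3.93, SE 0.30, adjusted p = 4.75e-06). The gene lies 3.0 Mb from the deleted gene on the same chromosome, and it overlaps A630023A22Rik on the opposite strand, which was at 0 to 0.882 CPM. Of the 11 measured annexins, these 3 included, 7 were called lower and 3 higher in LPMC, with a median of -0.57. Anxa2 fell with them (-1.61, SE 0.15, adjusted p = 1.29e-05), while Anxa13, an intestinal annexin (2.13, SE 0.37, adjusted p = 0.000824), and Anxa6 (1.29, SE 0.33, adjusted p = 0.00814) rose.

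S100a6 (ENSMUSG00000001025, chr3:90612882-90624181, plus strand) encodes calcyclin, a small calcium-binding protein first known from proliferating cells. It was at 2152, 2638 and 2078 CPM in colon WT and at 1106, 2125 and 1015 CPM in colon KO. Replicates 1 and 3 of KO were low and colon KO replicate 2 lay within the WT range, so the groups overlapped (-0.70, SE 0.32, adjusted p = 0.636). Colon KO replicate 2 was also the library with the highest summed level of epithelial markers. Per 1000 CPM of epithelial markers, S100a6 was at 73.2 to 97 CPM in WT and 51.3 to 55.6 CPM in KO, without overlap. The part of epithelial content in the S100a6 values was not tested. In LPMC the values were 416, 457 and 388 CPM in WT and 407, 420 and 325 CPM in KO (-0.14, SE 0.12, adjusted p = 0.998). S100a6 fell 4.48-fold from colon to LPMC (-2.16, SE 0.19, adjusted p = 9.99e-06). Of 15 measured S100 genes, 10 were called lower in LPMC and 0 higher (median -1.65), among them S100a11 (-1.73, SE 0.13, adjusted p = 4.76e-06) and S100a10, the partner of Anxa2 (-2.07, SE 0.17, adjusted p = 7.02e-06). In colon KO, 14 of 15 had a negative log2 fold change (median -0.59), but 0 passed edgeR's test and DESeq2 called 0. An unadjusted p under 0.05 was found for 4 of the 15 and for 1504 of all 19303 genes. Of the 15, S100a14 (-1.34, SE 0.36) and S100a16 (-1.11, SE 0.32) had the lowest p-values, both with an adjusted p of 0.632.

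Clu (ENSMUSG00000022037, chr14:65968483-65981547, plus strand) encodes clusterin, a secreted chaperone that marks the revival stem cells of damaged crypts. It was at 366, 10.1 and 24.8 CPM in colon WT and at 21.8, 10.9 and 21.4 CPM in colon KO. A single library, colon WT replicate 1, held most of it, and the other 5 overlapped. The log2 fold change of -2.92 (SE 1.24, adjusted p = 0.632) became 0.04 without that library (adjusted p = 0.982). In LPMC the levels were 119, 44.5 and 18.3 CPM in WT and 22.4, 25 and 36.1 CPM in KO, with LPMC WT replicate 1 the highest (-1.12, SE 0.65, adjusted p = 0.998). Colon WT replicate 1 was also the colon library with the most B cell RNA. Its 3 lymphoid follicle genes Cr2, Cxcl13 and Fcer2a, chosen after their values were seen, summed to 229 CPM, while 1.88 to 11.4 CPM were found in the rest of the colon libraries. LPMC WT replicate 1 did not stand apart in the same way: LPMC KO replicate 1 held more of the B cell markers (339 against 209 CPM) and follicle genes (81.4 against 55.7 CPM) at 22.4 CPM of Clu. The part of follicle cells in the Clu values was not tested. Between LPMC and colon Clu did not pass (-0.26, SE 0.75, adjusted p = 0.796).

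**Figure D2:**
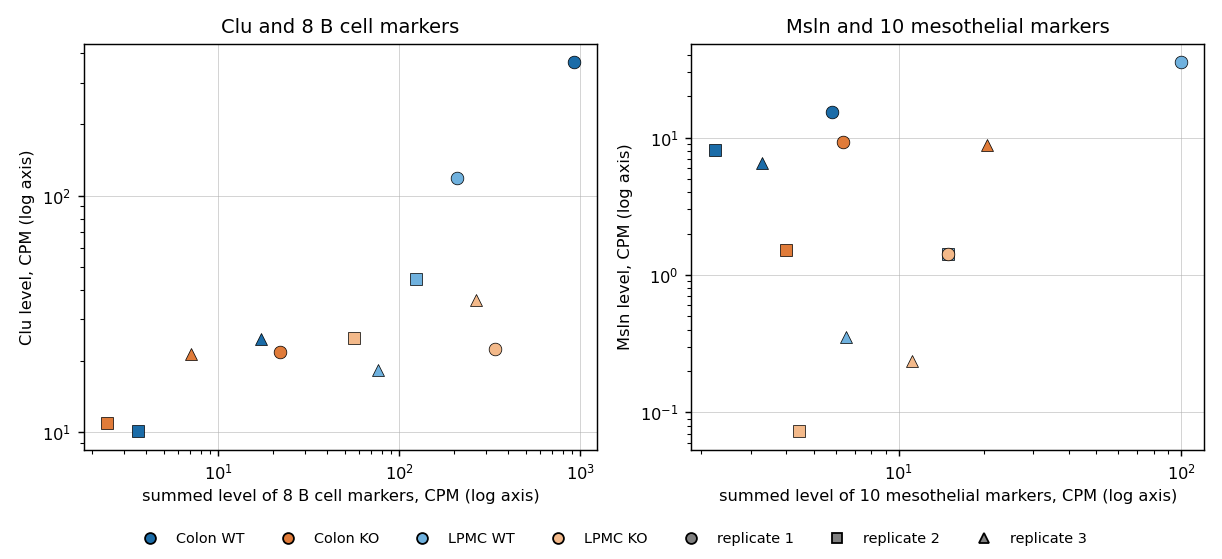
Clu level against the summed level of 8 B cell markers (left) and Msln level against the summed level of 10 mesothelial markers (right), both axes in CPM on log scales, 1 point per library with colour for the group and symbol for the replicate. The highest Clu value, 366 CPM, sits in the library with 918 CPM of B cell markers, and the highest Msln value, 35.3 CPM, in the library with 100 CPM of mesothelial markers.

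Msln (ENSMUSG00000063011, chr17:25748613-25754378, minus strand) encodes mesothelin, a lipid-anchored surface protein that binds the mucin Muc16. In colon it was at 15.3, 8.17 and 6.53 CPM in WT and at 9.28, 1.53 and 8.85 CPM in KO, with colon KO replicate 2 low and the other 5 libraries overlapping (-0.63, SE 0.66, adjusted p = 0.792). LPMC WT held 35.3, 1.43 and 0.351 CPM, from 3704, 142 and 18 counts, and LPMC KO held 1.43, 0.0729 and 0.237 CPM, from 196, 6 and 18 counts. The groups overlapped, and the log2 fold change of -4.39 (SE 1.95, adjusted p = 0.998) ranged from -6.3 to -0.62 when 1 library was left out. LPMC WT replicate 1 was highest for Msln and for the mesothelial markers, with Upk3b at 28.8 CPM, Wt1 at 6.14 CPM and Muc16 at 3.89 CPM. All 9 measured mesothelial markers had a negative log2 fold change in LPMC KO (median -3.11), with 0 called by edgeR or DESeq2. Of them, 3 were under an unadjusted p of 0.05 (2.64% of all genes were). In colon KO the pattern differed: 8 of the 9 were positive (median 1.58), while Msln was at -0.63. There edgeR and DESeq2 called 0 of the markers, and 2 were under an unadjusted p of 0.05, as were 1504 of all 19303 genes. Colon KO replicate 3 had the most mesothelial marker RNA (20.5 CPM) and its Msln level of 8.85 CPM lay inside the range of the other libraries. Colon WT replicate 2 held 8.17 CPM of Msln with 2.23 CPM of those markers and Lrrn4 and Wt1 at 0. Msln did not pass between LPMC and colon (-1.58, SE 1.01, adjusted p = 0.216). Without LPMC WT replicate 1 it was called lower in LPMC (-3.47, adjusted p = 0.00894).

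Il1rl1 (ENSMUSG00000026069, chr1:40429570-40465415, plus strand) encodes ST2, which binds the alarmin interleukin-33 together with Il1rap. It was at 21, 13.2 and 3.95 CPM in colon WT and at 19.6, 2.5 and 9.09 CPM in colon KO, spread over the same range in both (-0.32, SE 0.80, adjusted p = 0.921). In LPMC it was at 7.65, 6.89 and 7.41 CPM in WT and at 7.16, 3.94 and 12.2 CPM in KO (0.09, SE 0.40, adjusted p = 0.998). It did not pass between LPMC and colon either (-0.61, SE 0.50, adjusted p = 0.33). Of 10 markers of regulatory T cells and type 2 lymphoid cells 8 were called higher in LPMC, and of 10 mast cell markers 9. Over all genes tested 25.4% were called higher. Among these markers were Il5 (5.92, SE 0.59, adjusted p = 2.36e-05) and the mast cell gene Cpa3 (5.03, SE 0.54, adjusted p = 3.59e-05). The part of these cells in the Il1rl1 values was not tested. The ligand gene Il33 was at 29.3, 51.5 and 8.84 CPM in colon WT, 28.8, 4.89 and 21.4 CPM in colon KO and 5.32 to 23.9 CPM in LPMC. The co-receptor gene Il1rap rose in LPMC (1.22, SE 0.25, adjusted p = 0.0021).

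Read across the 8 genes, the comparison of genotypes in colon left 0 called, against 0.00518% of all genes tested. All 8 log2 fold changes were negative, with a median of -0.57 (0.01 over all genes, 49.5% of which were negative), and all 8 come from the same 6 libraries. At an unadjusted p under 0.05 there were 2 (Ly6a and Clu), where 4.47% of all genes were lower at that level, and 2 (Ly6a and Anxa3) had KO libraries wholly below WT ones, as did 7.14% of all genes. Per 1000 CPM of epithelial markers, 2 did so as well, now Ly6a and S100a6, where 2% of all genes did. DESeq2 called 0 of the 8. Markers of other cell types were uneven between the same colon libraries, with 0 of each list called by edgeR or DESeq2. For the list counts that follow, 1504 of all 19303 genes had an unadjusted p under 0.05 in either direction. All 12 T cell markers were negative (median -1.20, 6 under an unadjusted p of 0.05), with a summed level of 17.7 to 56.6 CPM in WT and 6.95 to 17.3 CPM in KO. All 10 smooth muscle markers were positive (median 0.62, 1 under that p), at 350 to 1390 CPM in WT and 871 to 2251 CPM in KO, and so were 9 of 10 fibroblast markers (median 0.64, 1 under that p), at 326 to 595 and 298 to 1181 CPM. Their part in the values of the 8 genes was not tested. In LPMC edgeR called 0 (0.0103% of all genes), 0 were under an unadjusted p of 0.05 (2.64%), 7 of 8 were negative (median -0.36, against 0 over all genes) and 1, Anxa1, did not overlap between genotypes with KO lower (4.26%). Per 1000 CPM of epithelial markers Anxa1 did overlap in LPMC, at 9.57 to 11.8 CPM in WT and 8.55 to 11.9 CPM in KO. The interaction, which asks whether the genotype difference itself differs between LPMC and colon, was called for 0 of the 8 and for 0% of all genes by edgeR. An unadjusted p under 0.05 was found there for 0 of the 8 and for 4.69% of all genes. DESeq2 called 0 of the 8 in LPMC and in the interaction. The genotype difference in Ly6a was thus not shown to differ between tissues (interaction 0.42, adjusted p = 0.911).

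**Figure D3:**
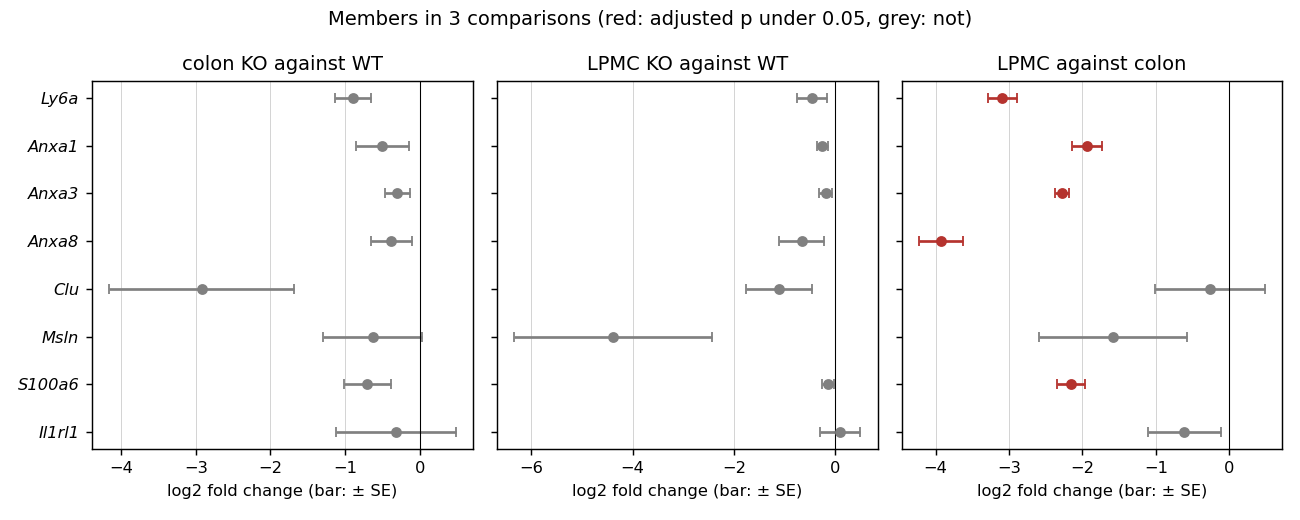
Log2 fold change with its standard error for each of the 8 genes in colon KO against WT, LPMC KO against WT and LPMC against colon (x axes differ). Red marks an adjusted p under 0.05: none in the genotype comparisons, and in the tissue comparison Ly6a, Anxa1, Anxa3, Anxa8 and S100a6, each lower in LPMC.

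Between LPMC and colon 5 of the 8 genes were called, each lower in LPMC, while 50.3% of all genes tested were called, 24.9% lower and 25.4% higher. The same 5 were lower in LPMC without overlap between the tissues, as were 13.2% of all genes. The median of the 8 was -2.05, against 0.01 over all genes. With the epithelial markers themselves called lower in LPMC for 7 of 12 (median -0.69), the 5 genes that fell were also lower per 1000 CPM of epithelial markers, without overlap, which held for 3.81% of all genes: Anxa8, for example, was at 7.73 to 21 CPM in colon and 0.602 to 2.38 CPM in LPMC on that scale. The immediate early and heat shock genes moved with the tissue as well (490 to 1329 CPM summed in colon, 11975 to 18640 CPM in LPMC), and the part of dissociation in these differences was not tested.

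Other genes of the wounded epithelium did not follow the 5. Of 29 measured genes of a list of wound-associated epithelium, 13 were called higher and 8 lower in LPMC (median 0.42). The growth factor Hbegf rose (3.47, SE 0.22, adjusted p = 1.20e-06), and the epithelial adhesion genes Lamb3, a laminin chain of the basement membrane (-2.20, SE 0.15, adjusted p = 1.75e-06), and Itgb6, an integrin of migrating epithelium (-2.88, SE 0.19, adjusted p = 1.79e-06), fell. Of 22 YAP and TAZ targets, 10 were called higher and 4 lower (median 0.82). Ccn1 (Cyr61), an immediate early target, rose from 11.7 ± 5.44 CPM (SD, n = 6) to 776 ± 208 CPM (6.08, SE 0.34, adjusted p = 5.67e-07), while the ectonucleotidase Nt5e fell (-3.66, SE 0.31, adjusted p = 8.77e-06). Of 16 pathway components, 8 were called higher and 0 lower. The largest log2 fold change was that of Vgll4, which encodes a TEAD-binding protein (1.64, SE 0.17, adjusted p = 2.88e-05). These counts and the rise of Vgll4 give no direction for the activity of YAP and TAZ, which was not measured.

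Crypt stem cell and Wnt genes went the other way from the 5 genes. In LPMC 10 of 14 were called higher and 0 lower (median 1.29). Lgr5, the receptor that marks crypt base stem cells, rose from 1.13 ± 1.13 CPM (SD, n = 6) in colon to 11.9 ± 5.16 CPM in LPMC (3.66, SE 0.52, adjusted p = 0.000232), and so did the progenitor factor Sox9 (2.79, SE 0.26, adjusted p = 1.56e-05). Absorptive colonocyte genes were called lower for 9 of 15 and higher for 0 (median -1.56), with the surface carbonic anhydrase Car4 (-5.43, SE 0.38, adjusted p = 2.57e-06) and the keratin Krt20 (-3.07, SE 0.28, adjusted p = 1.38e-05) among them. Interferon response genes were called lower for 13 of 20 and higher for 1 (median -1.32). LPMC and colon libraries also differed in cell type markers and dissociation genes, whose part in these list values was not tested.

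**Figure D4:**
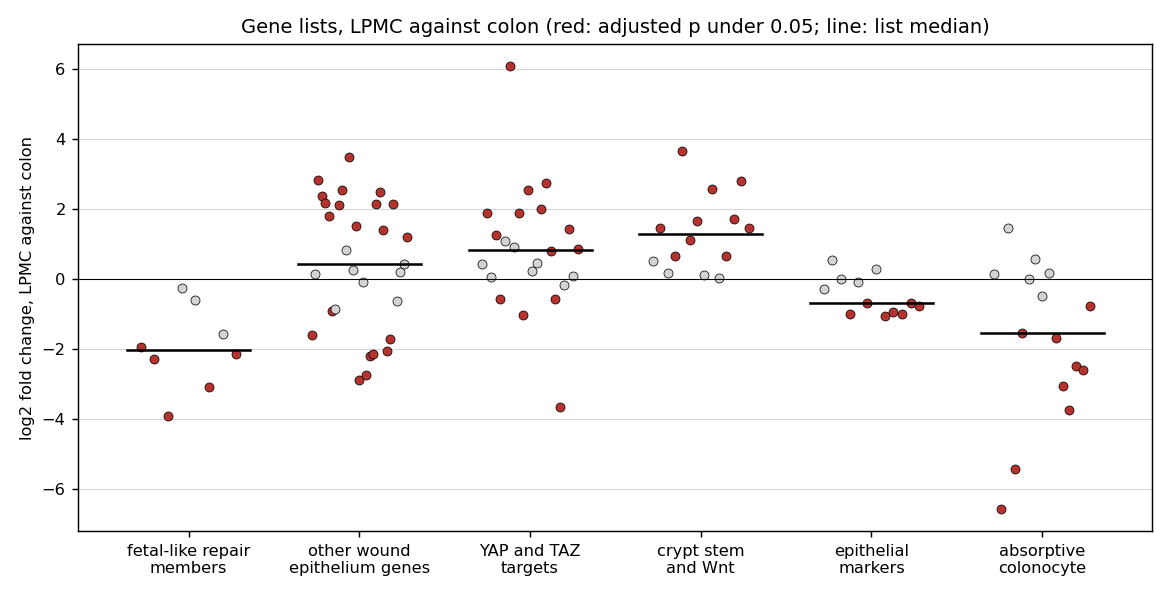
Log2 fold change of LPMC against colon for the genes of 6 lists, 1 point per gene, with red for an adjusted p under 0.05 and a line at each list's median. The 8 repair genes (median -2.05) and the colonocyte genes (-1.56) lie mostly below 0, the crypt stem and Wnt genes (1.29) above it, and the other wound epithelium genes (0.42) on both sides.

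Between genotypes edgeR called 0 genes of each of these lists in both tissues, and DESeq2 called 0 beside the 2 interferon response genes in colon. Over all genes tested in colon, 1504 of 19303 had an unadjusted p under 0.05 by edgeR, in either direction. In colon the wound epithelium list had a median of -0.24, with 17 of 29 negative, 7 under an unadjusted p of 0.05 and 0 called by DESeq2. Its lowest p-values were those of the urokinase receptor Plaur (-1.29, SE 0.32), Hbegf (-0.77, SE 0.22) and the tight junction gene Cldn4 (-1.46, SE 0.43), each with an adjusted p of 0.632. YAP and TAZ targets were at a median of 0.10 in colon KO (2 of 21 under an unadjusted p of 0.05, 0 by DESeq2), and crypt stem and Wnt genes at 0.41 (2 of 13, 0 by DESeq2).

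Correlations between the 8 genes were computed for 56 pairs, 28 in each tissue, and 0 passed after adjustment (lowest adjusted p = 0.0778, exact permutation test, two-sided, n = 6). The smallest p that 720 orderings of 6 libraries give is 0.00139, which is 0.0778 after adjustment over 56 pairs, so no single pair could pass on its own and the values are a description. In colon the lowest p was shared by 2 pairs. For Ly6a and Anxa3 the correlation was high (Pearson r = 0.96, exact permutation p = 0.00417, adjusted p = 0.0778; Spearman rho = 0.94, p = 0.0167, adjusted p = 0.187), with r = 0.8 without the 2 libraries farthest from the median. Msln and Il1rl1 were the other pair (r = 0.86, exact permutation p = 0.00417, adjusted p = 0.0778; rho = 0.94, p = 0.0167, adjusted p = 0.187; r = 0.89 without 2 libraries). In LPMC the pair with the lowest p was Ly6a and Anxa8 (r = 0.96, exact permutation p = 0.00139, adjusted p = 0.0778; rho = 1.0, p = 0.00278, adjusted p = 0.156; r = 0.99 without 2). For Anxa1 and Anxa8 in colon, r = 0.98 rested on colon WT replicate 2: rho was -0.14, and r was -0.94 without 2 libraries (exact permutation p of r = 0.167, adjusted p = 0.54; p of rho = 0.803, adjusted p = 0.881). All of these pairs mix genotypes within a tissue.

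The genes with the most similar pattern over the 12 libraries were found by the mean absolute difference of centred log2 CPM. For S100a6 they were Prr13 (0.12), its family member S100a10 (0.13) and Mrps6 (0.16), and for Anxa3 the pore-forming Gsdmd (0.11), Tnip3 (0.14) and Parp12 (0.15). Those of Anxa1 were Ripk3 (0.17), Tinagl1 (0.19) and Anxa2 (0.19), and those of Ly6a Thpo (0.18), Kalrn (0.23) and S100a14 (0.27). The nearest to Anxa8 were Pou3f3 (0.33), Ltb4r2 (0.34) and S100b (0.35), and to Il1rl1 H2-T24 (0.33), Adgb (0.38) and Mag (0.40). Clu was nearest to Mfge8 (0.43), Lta (0.51) and Extl1 (0.56), and Msln to Gjb5 (0.90), Dsg3 (0.92) and Cxcl5 (0.92). This difference grows with a gene's own spread, whose mean absolute deviation on the log2 scale ran from 0.70 for Il1rl1 to 2.19 for Msln, so it gives no order of closeness between the 8 genes.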

How the data were processed

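Bulk RNA of 12 libraries was measured with the TruSeq stranded mRNA kit, per the labels' protocols. Reads were handled with STAR against GRCm38 (mm10), per the submitters' processing notes. The sources used here do not give the counting tool, its strand setting or filters. From these reads the authors deposited 1 table of whole-number counts per Ensembl gene, not normalized, with 0 rows that name no gene. Even values made up 66.6 to 76.6% of counts from 1 to 20, which makes counting error larger than counts alone would give. Levels and tests were computed here from these deposited counts. No 2 replicates of a group were alike within sampling noise (chi-square of 73.9 to 579 per gene).

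In R 4.3.3, edgeR 4.0.16 was used with TMM factors (0.888 to 1.062), filterByExpr (minimum count 10), robust dispersions and the quasi-likelihood F-test. Genotypes were compared within the 6 libraries of a tissue, and the interaction and LPMC against colon (genotypes averaged) on all 12. Adjusted p-values cover all genes tested, called under 0.05, and the SE is the log2 fold change divided by the square root of F. DESeq2 1.42.0, other size factors, no filter, a replicate block and leaving out libraries were alternatives. The fits were tested on simulated counts. Pairs were computed with numpy 2.4.6 and pandas 2.3.3. Of listed genes, up to 3 per list and comparison were named by lowest p. Others (the dissociation genes, Ptprc, Cr2, Cxcl13, Fcer2a, Upk3b, Wt1, Lrrn4, Muc16, Il33, Ngp, Anxa6, Anxa13, S100a8 and S100a9 outside the LPMC genotype comparison) were chosen after their values were seen. So was Ly6g within the LPMC genotype comparison. The 8 genes and all lists were chosen with earlier results of these data known, and 1 further gene of the source list is not reported here, nor counted among the 8.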

Additional observations from a re-analysis of the deposited data

How the results depend on the processing

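The 5 calls between LPMC and colon were kept in all alternatives run, with Msln as a 6th call in 3 of them: -2.86 (adjusted p = 0.0112) with a replicate block, -2.95 (0.0214) with a block numbered within genotype, added after seeing the data, and -3.47 (0.00894) without LPMC WT replicate 1. Counts of genes called over all genes moved. In colon they were 32 with DESeq2, 0 with a replicate block, 2 in a fit of all 12 libraries and 0 to 1 without 1 library. In LPMC they were 34 with DESeq2, 4 with no filter, 0 with a replicate block and 1 to 2 without 1 library, and DESeq2 called 3 in the interaction. The cause was not tested, except that blocks and left-out libraries leave fewer degrees of freedom.

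Without 1 library, 5 of 8 genes kept their sign between genotypes in colon and 7 of 8 in LPMC. For the rest, colon log2 fold changes of KO against WT ran from -3.46 to 0.04 for Clu, -0.71 to 0.02 for Anxa1 and -1.14 to 0.26 for Il1rl1. In LPMC they ran from -0.41 to 0.41 for Il1rl1, which was -0.07 with the replicate block. Interactions ran from -1.18 to 2.71 for Clu, -0.29 to 0.45 for Anxa1, -0.01 to 0.20 for Anxa3 and -0.20 to 1.22 for Il1rl1. Clu in LPMC against colon was 0.22 and 0.31 with the 2 blocks and ran from -0.73 to 1.21 without 1 library. Ly6a in colon stayed between -1.01 and -0.64 without 1 library (adjusted p 0.232 to 0.939). Same-numbered libraries of WT and KO correlated at 0.042, -0.133 and -0.093 in colon and at 0.24, -0.06 and -0.23 in LPMC. Same-numbered colon and LPMC libraries, which bear on the Msln call with a block, correlated at 0.135, 0.081 and 0.163 in WT and 0.064, 0.303 and 0.182 in KO, though colon KO replicate 1 correlated better with LPMC KO replicate 3 (0.191). The same-numbered values between colon and LPMC were all positive, though not all over 0.1. Those of different numbers ran from -0.218 to 0.05 in WT and from -0.257 to 0.191 in KO. These correlations cannot show whether animals were shared. Nothing in the labels ties the numbers to animals, so same-numbered libraries were not taken as pairs. The main tests on 12 libraries treat them as independent and would ignore animals shared by both tissues. Depth limits Msln in LPMC KO, with 196, 6 and 18 counts per library.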

Other observations

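Ly6g, a neighbour of Ly6a in its gene family and known as a marker of neutrophils, is 1 of 12 neutrophil markers tested. It averaged 526 ± 86.8 CPM (SD, n = 3) in colon WT, 277 ± 52.4 in colon KO, 5.14 ± 1.39 in LPMC WT and 3.84 ± 2.16 in LPMC KO. S100a8 averaged 40.8 ± 18.7, 33.8 ± 23.8, 13.6 ± 6.94 and 56.8 ± 42.9 CPM in the same groups, and S100a9 62.7 ± 41.6, 35.5 ± 27.6, 44.6 ± 16.9 and 174 ± 134 CPM. Between LPMC and colon, 2 of the 12 were called lower, Ly6g and Ltf (-4.34, SE 0.87, adjusted p = 0.00212), and 2 higher, Mmp8 (2.58, SE 0.78, adjusted p = 0.0185) and Ngp (3.11, SE 1.02, adjusted p = 0.0268), with a median of 1.12, while S100a8 (-0.42, SE 0.56, adjusted p = 0.558) and S100a9 (0.90, SE 0.66, adjusted p = 0.282) did not pass edgeR's test. In colon KO against WT, 10 of the 12 were negative (median -0.56), Ly6g among them. There 0 were called by edgeR or DESeq2 and 1 was under an unadjusted p of 0.05, as were 1504 of all 19303 genes. In LPMC KO against WT, 11 of the 12 were positive (median 1.85), with 0 called by edgeR or DESeq2. Of them, 6 were under an unadjusted p of 0.05 (2.64% of all genes were). Ly6g was the negative one there (-0.42, SE 0.51, adjusted p = 0.998 by edgeR). From colon to LPMC Ly6g and Ltf thus fell while the median of the 12 was positive, and the cell source of Ly6g was not tested. Whether reads of other Ly6 genes are counted as Ly6g was not tested either.

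Of the receptors and partners of these genes, 2 of 15 measured were called higher and 4 lower in LPMC. The clusterin receptor gene Vldlr had the lowest p of them in colon KO against WT (1.59, SE 0.53, adjusted p = 0.632 by edgeR), with 35.2 CPM in colon KO replicate 2 and 4.32 to 12.4 CPM elsewhere in colon.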
